A study of Mus musculus with 8 samples.

Results

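The control group of a study of Jagn1, the gene of Jagunal homolog 1, a protein in the membrane of the endoplasmic reticulum (ER), is described here from its 4 libraries, control replicates 1 to 4 by title, of 8 in the whole series. These were sorted mouse plasmablasts, and each library holds counts for 24413 gene symbols. The mice were C57BL/6J with the genotype Jagn1fl/fl, in which recombination sites flank the gene but no Cre recombinase is named in the labels. Splenic B220+ B cells were enriched on magnetic columns and cultured for 4 days with lipopolysaccharide (LPS) at 25 µg/ml, a bacterial cell wall component that B cells sense through a Toll-like receptor. Cells that lacked surface CD22, a B cell receptor inhibitor, and carried CD138, the plasma cell proteoglycan encoded by Sdc1, were then sorted, and libraries were made from the 3′ ends of their transcripts. The series counts 4 mice in each genotype, but no label ties a library to a mouse, so the spread between replicates may hold both animal and technical differences. All cells had been cultured and stimulated, and neither unstimulated B cells nor the knockout libraries were analysed here.

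Plasmablasts are antibody-secreting cells that still divide. Their transcription factors BLIMP1 (encoded by Prdm1), IRF4 and XBP1 drive the change from an activated B cell to a secretory cell and silence B cell identity genes such as Pax5. Antibody chains are translated on ER-bound ribosomes, threaded through the Sec61 channel, folded by BiP and other chaperones, linked by disulfide bonds and glycosylated before vesicles carry them to the Golgi, and the unfolded protein response matches this machinery to its load. In the LPS model B cells become IgM-secreting plasmablasts within days, and the joining chain binds IgM into polymers.

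The libraries held 5882912 to 10066661 counts (7628210 ± 1754573, SD, n = 4), and 11476 to 11745 symbols had a count in each. Levels are given as CPM, the counts of a gene per 1000000 counts of its library. A 3′ tag library counts transcript ends, so levels were not divided by transcript length. A gene with no count in a library lies below 0.298 to 0.510 CPM, the level of 3 counts, which covers counting error only. Immunoglobulin heavy and light chain genes and genes encoded by mitochondrial DNA were not analysed here, so each share and rank refers to the symbols used. Xist, the RNA of the inactive X chromosome, stood at 718, 779, 712 and 810.0 CPM in replicates 1 to 4, and the Y-linked Ddx3y, Eif2s3y, Kdm5d and Uty had no count in any library. Jagn1 itself was scarce, at 2.62, 5.95, 2.19 and 9.83 CPM, the values resting on 19, 35, 16 and 99 counts.

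Replicates 1 and 4 stood apart, on opposite sides of the other two. Over the 2757 genes with a mean of at least 50 CPM, which held 89.1% of all counts, the first principal component of the log2 levels carried 79.5% of the variance and placed replicate 1 at -0.74, replicate 2 at -0.05, replicate 3 at 0.13 and replicate 4 at 0.66. The share of these genes at least 2-fold apart was 17.3% between replicates 1 and 4 and 0.145% between replicates 2 and 3. The common biological coefficient of variation, edgeR's estimate of the spread beyond counting error, was 0.238 over the 4 libraries and 0.134 over replicates 2 and 3 alone. A gene of this set is called steady where its highest library was less than 25% above its lowest, as for 484 genes (17.6%), and variable where it was at least 2 times its lowest, as for 517 genes (18.8%). Every pair of libraries differed by more than counting noise (chi-square per degree of freedom 14.4 to 94.2), so no pair was treated as 1 library, which does not show that they came from separate animals or cultures. No label names a batch, and the source of this ordering was not tested.

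The most abundant genes were mainly ribosomal protein genes, translation factors and genes of the ER. The 20 most abundant genes took 19.5% ± 0.835 of the counts (SD, n = 4), the 100 most abundant took 40.02% ± 1.16, and 214 genes accounted for 50% of all counts. Of the first 20, 10 encode cytosolic ribosomal proteins, 3 belong to the ER folding class (Mzb1, Hspa5 and Hsp90b1), 2 to the translation factor class (Eef2 and Tpt1), and 1 each is a Sec61 subunit (Sec61g), the joining chain (Jchain) and a nuclear long noncoding RNA (Malat1). The remaining genes were Sub1, which encodes a single-stranded DNA-binding transcription coactivator, and D17H6S56E-5. Of the first 100, 50 were cytosolic ribosomal protein genes, 7 were ER folding genes and 5 were translation factor genes.

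Mzb1, which encodes an ER protein of B cells that assists antibody folding together with the chaperone Grp94, was the most abundant of the symbols used, at 19322, 22076, 21570.5 and 20312 CPM in replicates 1 to 4 (20820.4 ± 1244, SD, n = 4). Hspa5, the gene of the ER chaperone BiP that binds unassembled heavy chains, came next at 14514, 12015, 14557 and 12971 CPM. Both were steady, with the highest library 1.14 and 1.21 times the lowest. Rps14, a small-subunit ribosomal protein gene, stood at 13088, 12071, 14775 and 12899 CPM, so its order against Hspa5 changed between libraries and their means (13208 and 13514 CPM) differed by less than their spread. Sub1 followed at 15246, 10484, 11954 and 12641 CPM, highest in replicate 1. Jchain, in rank 14, stood at 5661, 6783, 9821 and 8024 CPM, lowest in replicate 1 and highest in replicate 3, and alone held 0.757% ± 0.178 of the counts. Malat1 fell in the same range, at 11593, 9503, 9817 and 7672 CPM, with its highest level in replicate 1 and its lowest in replicate 4. Dividing each level by transcript length left 12 of the 20 genes among the first 20, with Mzb1 still first, and brought in 8 short ribosomal protein genes.

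**Figure D1:**
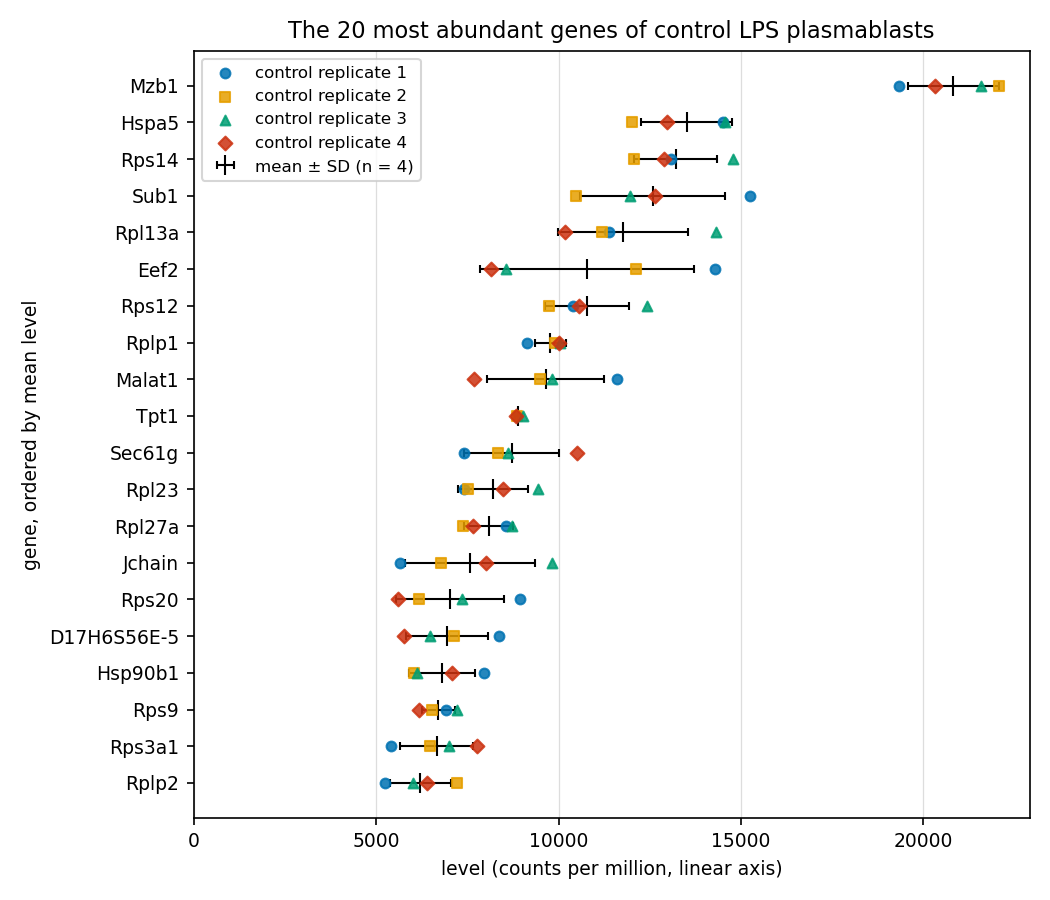
Level of the 20 genes with the highest mean, in CPM on a linear axis; each marker is 1 control library, and the black bar is the mean with its SD over 4 libraries. Mzb1 stands above all others in every library, Tpt1 has the narrowest range, and Eef2 spans 8138 to 14278 CPM.

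Several identities and places bear on how these values can be read. On the mouse build GRCm38 (GENCODE M21), Hspa5 lies at chr2:34771970-34777547 on the plus strand, Jchain at chr5:88519809-88527891 on the minus strand and Sub1 at chr15:11981339-11996983 on the minus strand, all protein-coding genes. Exons of Rpl13a share 621 bases on the same strand with the annotated model Gm45713, and those of Mzb1 share 695 bases with the model SPATA24, so how reads in these stretches were assigned is uncertain. Exons of Hsp90b1 share 415 bases with a pseudogene on the opposite strand, and those of Erp29 share 2210 bases with Naa25 on the opposite strand; the sources used here do not say whether counting used the strand. Ribosomal protein genes and Eef1a1 have many processed pseudogene copies, and their counts are uncertain for that reason.

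The 44 genes of the ER folding class (chaperones, disulfide isomerases and folding cofactors) held 6.19% ± 0.199 of the counts (SD, n = 4), the second largest class share after the ribosomal proteins, at 6.48, 6.07, 6.19 and 6.04% in replicates 1 to 4. Its share differed between libraries by no more than 1.07-fold. Mzb1 and Hspa5 led it, followed by Hsp90b1, the gene of the chaperone Grp94, at 7956, 6027, 6119 and 7089 CPM. Calr, the gene of the lectin chaperone calreticulin, stood at 8332, 4731, 4292 and 3481 CPM, 2.39-fold higher in replicate 1 than in replicate 4. Pdia6, a disulfide isomerase gene, went the other way, at 973, 1340.2, 1509.9 and 2311 CPM, lowest in replicate 1 and highest in replicate 4. Pdia4, another disulfide isomerase gene, stood at 3366, 3073, 3004 and 2443 CPM, lowest in replicate 4. Canx, the gene of the membrane-bound lectin chaperone calnexin, stood at 1406, 1355, 1306 and 1120.1 CPM, also lowest there. Erp29, the gene of a folding factor related to the disulfide isomerases, was among the steadiest genes at 704, 695, 682 and 694 CPM. Erp44, which encodes a thioredoxin-family protein that retains unassembled IgM, was among the most variable at 37.0, 95.4, 108 and 222 CPM.

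Some promoters of this class carry a named sequence. The ER stress response element, bound by the CCAAT factor NF-Y together with ATF6 or XBP1, was searched as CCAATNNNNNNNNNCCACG on both strands of RefSeq promoters (GRCm38.p6, 250 bases before to 50 after each start). A match was found in 8 of the 37 ER folding genes that have a promoter in the table (21.6%), in 11 of 2251 genes with a mean of at least 50 CPM (0.489%) and in 39 of 32851 promoters in all (0.119%). The 8 genes were Hspa5, Hsp90b1, Calr, Pdia6, Canx, Dnajc3, Ero1lb and Creld2, with a median level of 1415 CPM (107 to 13514). All 8 are thus also among the 11 genes with a mean of at least 50 CPM, so that set is not independent of the class. The 29 ER folding genes without a match had a median of 113 CPM (0 to 2971). Mzb1, Hyou1, Erp29, Manf, Ppic, Sil1 and Tmx3 had no promoter in the table. Among ER-associated degradation genes, 2 of 18 had a match (Derl3 and Syvn1, which are also among those 11). None of 29 translocation, 58 ER-Golgi traffic, 29 stress response regulator or 66 cytosolic ribosomal protein genes had one in these letters. The short parts of the element are common: CCAAT alone occurs in 37.4% of all promoters and CCACG in 32.8%. A match describes letters in a window, not binding.

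The windows around the match are shown for the most abundant members and for Derl3 and Creld2, because they place the shared letters in genes of very different levels. Each is written 5′ to 3′ on the gene's own strand, upstream of its RefSeq start, with the match in capitals; where it lies on the opposite strand it reads CGTGG first and ATTGG last.
Hspa5, chr2:34771985-34772083, plus strand: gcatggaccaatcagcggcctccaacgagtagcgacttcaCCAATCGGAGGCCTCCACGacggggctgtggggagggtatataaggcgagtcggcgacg
Hsp90b1, chr10:86705493-86705694, minus strand: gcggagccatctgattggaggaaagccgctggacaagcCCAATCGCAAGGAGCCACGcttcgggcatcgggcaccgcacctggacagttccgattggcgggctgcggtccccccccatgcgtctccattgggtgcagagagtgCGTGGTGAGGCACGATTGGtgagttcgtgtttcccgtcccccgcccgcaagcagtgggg
Calr, chr8:84847035-84847133, minus strand: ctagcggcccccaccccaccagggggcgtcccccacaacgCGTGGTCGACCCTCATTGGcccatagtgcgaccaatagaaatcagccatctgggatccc
Pdia6, chr12:17266451-17266549, plus strand: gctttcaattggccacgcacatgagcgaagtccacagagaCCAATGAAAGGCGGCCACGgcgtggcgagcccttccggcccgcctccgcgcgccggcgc
Canx, chr11:50325760-50325858, minus strand: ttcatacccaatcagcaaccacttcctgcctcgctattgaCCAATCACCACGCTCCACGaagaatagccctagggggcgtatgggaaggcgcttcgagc
Derl3, chr10:75893202-75893300, plus strand: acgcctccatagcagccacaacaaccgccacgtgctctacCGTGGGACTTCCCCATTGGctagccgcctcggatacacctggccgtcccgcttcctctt
Creld2, chr15:88819480-88819578, plus strand: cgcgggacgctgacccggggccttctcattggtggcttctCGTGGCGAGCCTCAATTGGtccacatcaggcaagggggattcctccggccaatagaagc
Of the 11 genes of the secretory classes with a match, Hsp90b1 alone held 2. The match began 65 bases before the RefSeq start in Hspa5, 98 in Pdia6, 145 in Canx, 156 in Derl3 and 162 in Calr. The GENCODE model of Hspa5 begins upstream of the window shown, and that of Hsp90b1 reaches into its window. Distances to the start therefore depend on the gene model. The Creld2 window lies in a stretch shared with the promoter of Alg12, a mannosyltransferase gene on the opposite strand, so the same letters count for both genes; their levels were 107, 103, 99.3 and 119 CPM for Creld2 and 5.80, 5.44, 4.10 and 3.28 CPM for Alg12. Genes with a match did not share an order among libraries. Calr was highest in replicate 1, Pdia6 in replicate 4 and Hspa5 was level.

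Genes that move nascent chains into the ER (38 symbols) held 2.20% ± 0.150 of the counts. Their leading member Sec61g, a small subunit of the Sec61 channel, stood at 7404, 8351, 8628 and 10505 CPM, lowest in replicate 1 and highest in replicate 4. Sec61a1, the channel-forming subunit, ran the opposite way at 5682, 4802, 4770.1 and 4101 CPM. Sec61b, the other small subunit, stood at 468, 505, 461 and 740.0 CPM, highest in replicate 4. Ssr4, a subunit of the translocon-associated complex, was at 1308, 1148, 1427 and 1124 CPM. Srp72, a subunit of the signal recognition particle that brings ribosomes to the ER, stood at 872, 759, 681 and 642 CPM, highest in replicate 1. Srp9, another subunit of that particle, stood at 51.8, 104, 144 and 292 CPM, 5.64-fold higher in replicate 4 than in replicate 1.

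Glycosylation, quality control and transport followed. The N-glycosylation class (50 symbols) held 1.13% ± 0.166 of the counts, led by subunits of the oligosaccharyltransferase, the enzyme that puts glycans on nascent chains. Rpn1 stood at 1742, 2289.7, 2481 and 3316 CPM. Ostc stood at 1273, 1376, 1582 and 1657 CPM. Ddost stood at 424, 912, 1097 and 1625 CPM, and all 3 were lowest in replicate 1 and highest in replicate 4. Ddost spanned 3.83-fold, Rpn1 1.90-fold and Ostc 1.302-fold, so subunits of 1 complex differed widely in spread. The ER-associated degradation class (24 symbols) held 0.717% ± 0.0465, led by Vcp, the ATPase that pulls misfolded proteins out of the ER, at 1879.9, 2030.5, 1506 and 1804 CPM. Sel1l, the adaptor of the HRD1 ubiquitin ligase, was steady at 752, 848, 793 and 793 CPM. Syvn1, which encodes that ligase, was not, at 19.9, 46.9, 61.0 and 169 CPM, a range of 8.49-fold with replicate 1 lowest and replicate 4 highest. In the ER-Golgi traffic class (70 symbols, 0.893% ± 0.138), the cargo receptor gene Tmed10 was steady at 929, 967, 934 and 859 CPM. Lman2, a lectin of the early secretory pathway, stood at 172, 526, 569 and 1130.5 CPM. Kdelr2, a receptor that returns escaped ER proteins, stood at 31.1, 107, 126 and 232 CPM, and both were lowest in replicate 1 and highest in replicate 4. Together the 5 secretory classes (folding, translocation, glycosylation, degradation and traffic, 226 symbols) held 11.1% ± 0.330 of the counts.

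The class of unfolded protein and integrated stress response regulators (33 symbols) held 0.526% ± 0.0624 of the counts, and 7 of its 18 genes with a mean of at least 50 CPM were variable, 4 of them higher in replicate 4 than in replicate 1 and 3 lower, beside 18.8% variable genes and a split of 309 to 208 over all 2757 genes. Atf4, the transcription factor of the integrated stress response, was its leading member at 2229.7, 1542, 1254 and 866 CPM, highest in replicate 1 and lowest in replicate 4. Ddit3 (CHOP), a factor it induces, stood at 242, 201, 168 and 93.8 CPM. Atf5, another factor of that response, stood at 420.2, 439, 327 and 169 CPM, and both were lowest in replicate 4. Xbp1, whose spliced messenger encodes the active factor of the IRE1 branch, had the reverse order at 104, 221, 251 and 570.5 CPM, 5.48-fold from lowest to highest. Atf6, the sensor of another branch, was steady at 208, 233, 199 and 217 CPM. The 3′ counts do not tell spliced from unspliced Xbp1. Slc7a5, the light chain of a large neutral amino acid transporter, stood at 42.4, 158, 168 and 183 CPM. Slc3a2, its heavy chain, stood at 101, 209, 211 and 260.3 CPM, and both were lowest in replicate 1.

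Cytosolic ribosomal protein genes were the largest class, with 21.6% ± 1.73 of the counts in 87 symbols, at 20.02, 20.2, 23.3 and 22.8% in replicates 1 to 4. Replicates 1 and 2 were thus lower than replicates 3 and 4. The most abundant members after Rps14 were Rpl13a, Rps12 and Rplp1. Rpl13a, a large-subunit protein, stood at 11389, 11202, 14326 and 10167 CPM, highest in replicate 3. Rps12, of the small subunit, stood at 10386, 9729, 12428 and 10572 CPM, also highest in replicate 3. Rplp1, of the ribosomal stalk that recruits elongation factors, was steady at 9135, 9894, 10046 and 10004 CPM. Rpl39, the gene of a very small large-subunit protein, was the least even of those named, at 317, 767, 1187 and 1897 CPM. Translation elongation and initiation factors (66 symbols) held 4.23% ± 0.209. Eef2, which moves the ribosome along the messenger, stood at 14278, 12136, 8571 and 8138 CPM, higher in replicates 1 and 2 than in 3 and 4. Eef1a1, which brings aminoacyl-tRNA to the ribosome, had the reverse order at 1166, 2539, 2876 and 5124 CPM. Tpt1, the gene of a translationally controlled protein classed with these factors, stood at 8874, 8855, 9022 and 8825 CPM. It was the steadiest of the 2757 genes once predicted gene models and clone names were left out. With the aminoacyl-tRNA synthetases (0.424% ± 0.0267), the 3 translation classes held 26.2% of the counts on average, from 24.9% in replicate 1 to 27.7% in replicate 3.

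**Figure D2:**
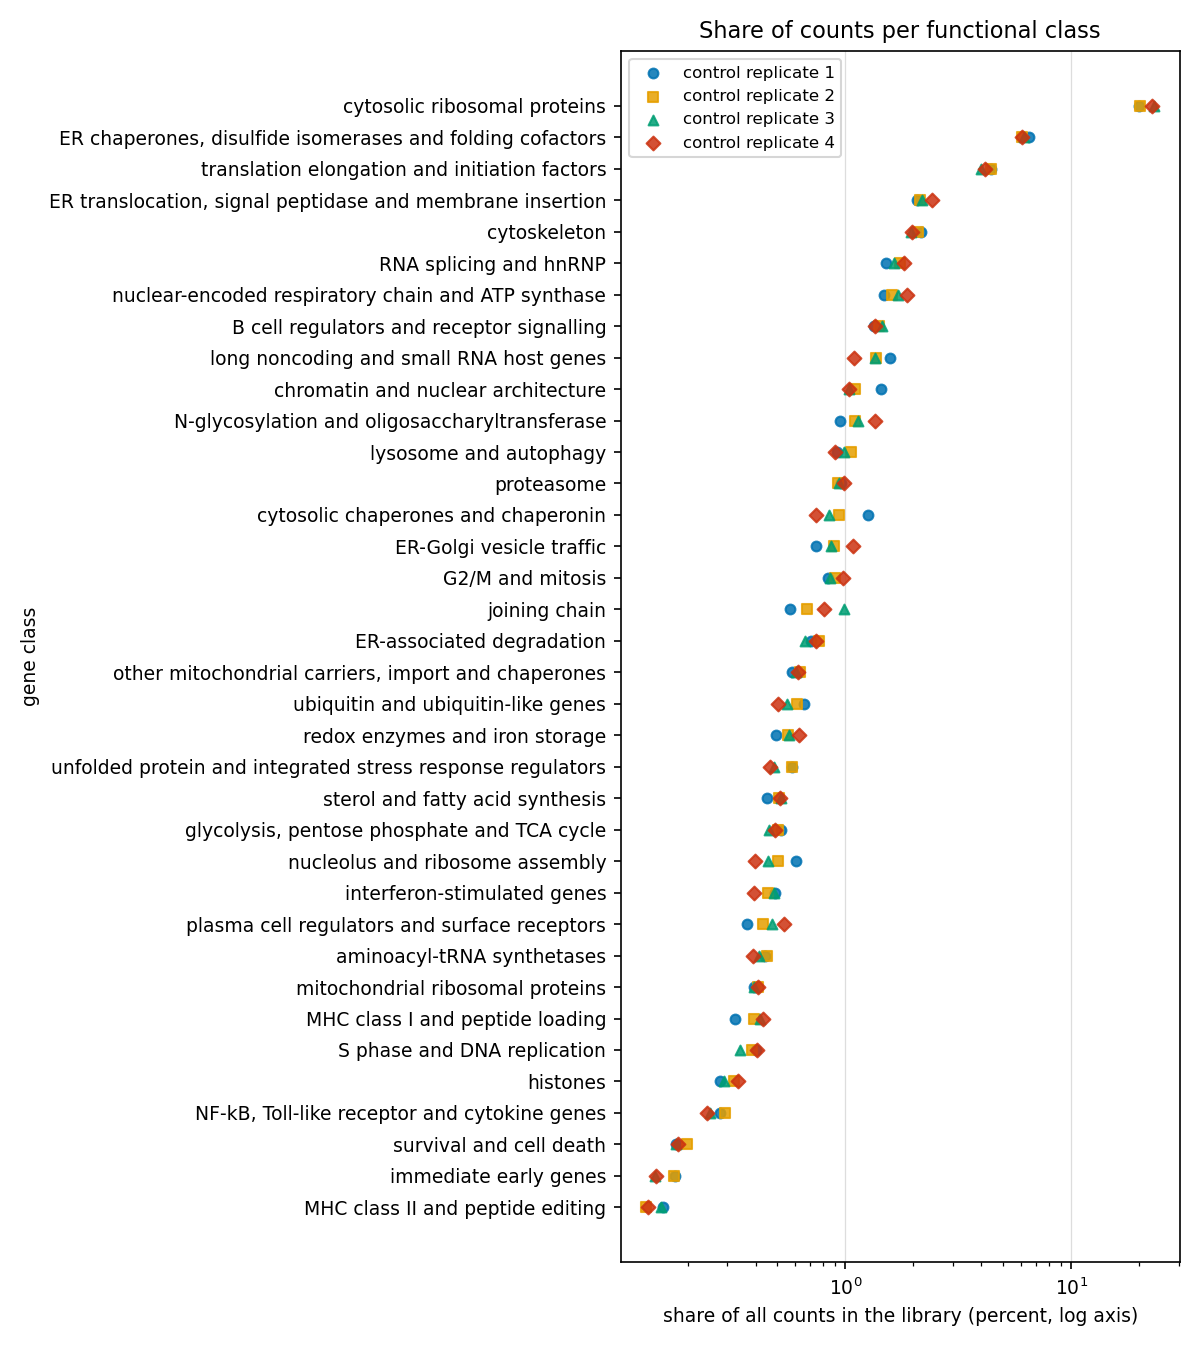
Share of each library's counts taken by 36 gene classes, in percent on a log axis; each marker is 1 control library. Ribosomal proteins hold 20.02% to 23.3% and ER folding genes 6.04% to 6.48%, and the markers of most classes lie close together; the joining chain and the cytosolic chaperones spread over 1.73-fold and 1.70-fold.

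Energy and housekeeping classes were smaller. Nuclear-encoded respiratory chain and ATP synthase genes (88 symbols) held 1.67% ± 0.167 of the counts, led by Atp5l at 1468, 1310.4, 1705 and 1580.2 CPM. Proteasome genes held 0.954% ± 0.0246, with Pomp, the assembly factor, leading at 837, 828, 920.4 and 985 CPM, and their summed share had a ratio of 1.06 between libraries. Its members were less even: 8 of the 32 with a mean of at least 50 CPM were variable (25.0%, beside 18.8% of all genes), and their median ratio of highest to lowest library was 1.75, beside 1.503 over all genes. Cytoskeletal genes held 2.04% ± 0.101, led by Actb, the gene of beta-actin, at 6188, 5710.3, 4415 and 4343 CPM. Tuba1c, an alpha-tubulin gene, stood at 5139.9, 3688, 3558 and 2280.5 CPM, and both were highest in replicate 1. Cytosolic chaperones held 0.943% ± 0.222. Their leading gene Hsp90ab1, an HSP90 isoform, stood at 7486, 4408, 3544 and 2474 CPM, 3.03-fold higher in replicate 1 than in replicate 4. Hspa8, the constitutive HSP70, was steady at 329.9, 374, 345 and 336 CPM. Sterol and fatty acid synthesis genes held 0.498% ± 0.0328, led by Cyp51, a lanosterol demethylase gene, at 678, 715, 799 and 676 CPM. The redox class held 0.558% ± 0.0534, with Sod1, the cytosolic superoxide dismutase, at 1477, 1034, 1335 and 975 CPM. Prdx1, a peroxiredoxin, stood at 483, 951, 999 and 1634 CPM, 3.39-fold from replicate 1 to replicate 4. In all, 36 named classes of 2963 symbols held 58.1% ± 1.43 of the counts, and other named genes outside any class held 40.4% ± 1.37.

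Markers of the plasma cell programme were present in every library. In these bulk libraries fewer cells of a type and less RNA per cell cannot be told apart. All 18 genes of the plasma cell list had a mean of at least 5 CPM, and their summed level was 27640 CPM in replicate 1 and 34928 CPM in replicate 3, of which Mzb1 and Jchain made up the greater part. Prdm1, the gene of BLIMP1, stood at 849, 1176, 1159.5 and 1359.7 CPM. Irf4 stood at 147, 247, 220.2 and 342 CPM, and both genes were lowest in replicate 1 and highest in replicate 4. Cd93, a receptor that maintains plasma cells, was steady at 484, 545, 485 and 521 CPM. Slamf7, a surface receptor of plasma cells, was also steady, at 297, 249, 264 and 248 CPM. Ell2, an elongation factor that favours the secreted form of the heavy chain messenger, stood at 282, 369, 375 and 433 CPM, lowest in replicate 1. Eaf2, a partner of the ELL factors, stood at 105, 193, 202 and 278 CPM, with the same extremes. Sdc1, the gene of the sorting marker CD138, was modest at 39.8, 34.8, 33.9 and 57.8 CPM. Tnfrsf17, the receptor BCMA, was low at 10.8, 6.63, 13.7 and 10.9 CPM. Cxcr4, the homing receptor for bone marrow, stood at 111, 140.2, 179 and 183 CPM. Pim2, a survival kinase gene, ranged 5.92-fold, at 23.8, 60.3, 66.0 and 141 CPM.

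B cell identity genes differed widely in level. The B cell list summed to 1520 to 2030 CPM, and 15 of its 17 genes had a mean of at least 5 CPM. Pax5, the B cell identity factor, was nearly absent at 0.276, 0.510, 1.37 and 0 CPM. Cd22, the gene of the marker that the sort excluded, was low at 10.6, 7.99, 6.28 and 2.58 CPM. Ebf1, Bcl6 and Spib, other B cell transcription factors, had means of 14.1, 12.5 and 5.62 CPM. Surface genes of B cells were counted in every library, some as low as these factors. Ccr7, Cxcr5, Cr2 and Fcer2a had means of 2.82, 8.13, 20.4 and 29.3 CPM, and the transcription factor Bach2 had 25.5 CPM. Other surface genes were higher. Ms4a1 (CD20) stood at 379.9, 361, 433 and 323 CPM. Cd79a, a signalling chain of the B cell receptor, stood at 389, 278, 329 and 225 CPM, highest in replicate 1. Cd79b, the other signalling chain, stood at 181, 188, 224 and 254 CPM, highest in replicate 4. Ptprc (CD45), the leukocyte phosphatase, stood at 611, 539, 536 and 427 CPM. The coactivator gene Pou2af1, known for its part in B cells and plasma cells alike, was the most abundant B cell regulator at 5109, 5719, 5336 and 4959 CPM. The exons of Cd22 share 479 bases with an antisense model, a further limit on its low values.

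**Figure D3:**
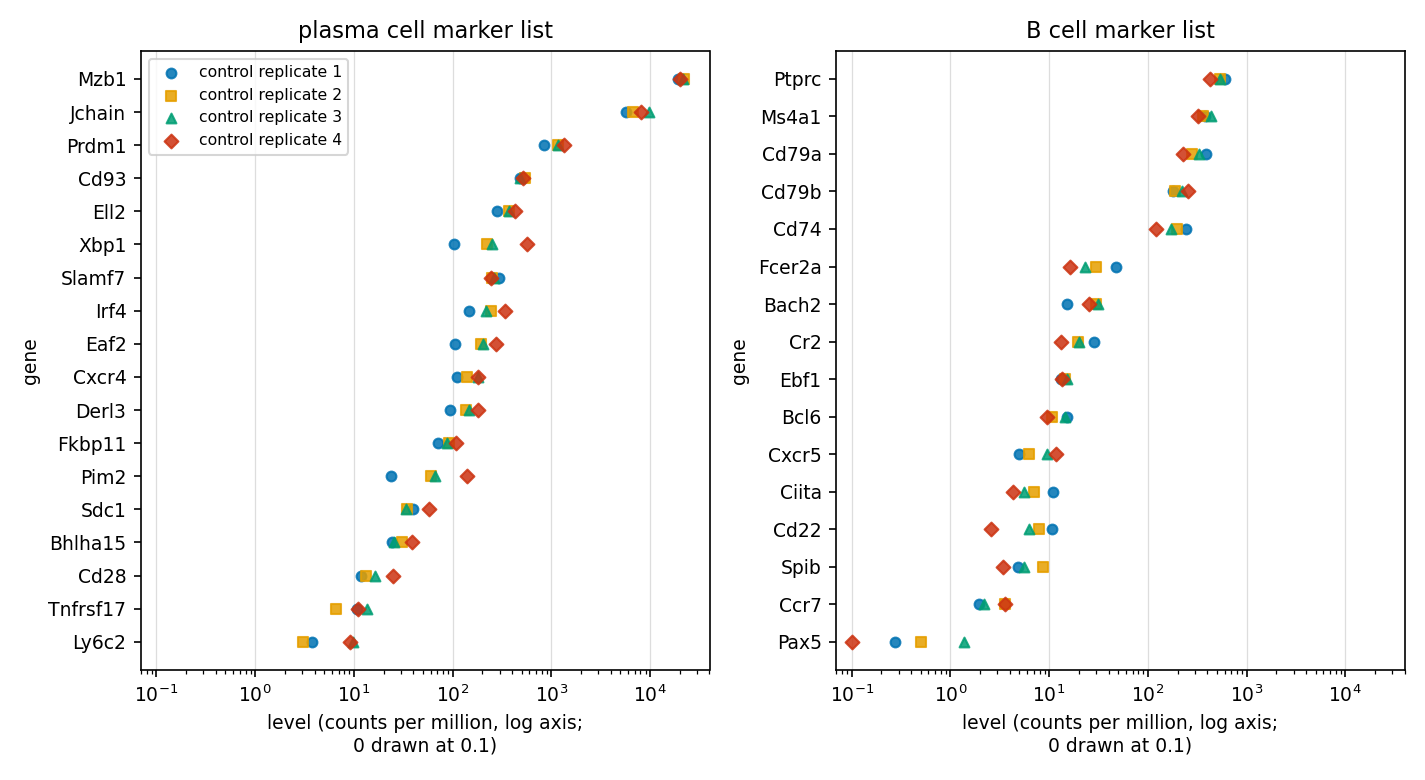
Level of genes of the plasma cell list (left) and the B cell list (right) in each control library, in CPM on a log axis, with values of 0 drawn at 0.1. Plasma cell genes run from Mzb1 near 20820 CPM down to Ly6c2, and in the B cell list Pax5 lies lowest, with no count in replicate 4.

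Other cell types left few counts. In the monocyte and macrophage list 9 of 14 genes had no count in any library, including Lyz2, Cd14 and C1qa, and the list summed to 3.55 to 7.46 CPM, with Csf1r at 2.07, 0.510, 0.956 and 0.199 CPM. In the erythroid list 8 of 10, including Hba-a1, had none, and in the platelet list 4 of 6, including Pf4. The natural killer cell list summed to 0.170 to 2.58 CPM, with no count for Ncr1. The T cell list summed to 27.9 to 39.9 CPM over 13 genes, with Cd3e at 0, 0, 0.410 and 2.68 CPM. In that list 3 of the 13 genes had a mean of at least 5 CPM and were counted in every library. These were Cd2, Cd8b1 and Cd3d, with means of 9.25, 5.98 and 5.66 CPM. Neutrophil genes S100a8, S100a9 and 5 others had no count, yet that list summed to 90.2 to 148 CPM because of Cxcr2, a chemokine receptor, at 75.3, 112, 96.4 and 143 CPM. In the dendritic cell list, which summed to 103 to 146 CPM, Itgax (CD11c) had 1 count in all and Xcr1, another chemokine receptor, stood at 103, 95.9, 60.0 and 68.6 CPM. Apart from the defining markers of each list, the genes named here were picked out after their values were seen. The stromal and endothelial list summed to 19.5 to 40.3 CPM, most of it from Pecam1 at 17.7, 29.9, 23.6 and 26.9 CPM, with Col1a1 at 0.552, 1.19, 0.410 and 1.09 CPM.

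Cell cycle transcripts were counted in every library. The G2/M and mitosis class (63 symbols) held 0.892% ± 0.0585 of the counts, with Cdc25b, an activator of mitotic kinase, at 1452, 1433, 1424 and 1250.0 CPM. Top2a, a topoisomerase of dividing cells, stood at 1169, 950.2, 997 and 1052 CPM. Mki67, the proliferation marker, stood at 559, 492, 501 and 518 CPM, and these 3 genes were steady. Cdk1, the mitotic kinase itself, was not, at 67.3, 237, 228 and 411 CPM. The S phase class held 0.384% ± 0.0304, with Lig1, the replicative ligase, at 1154, 944, 738 and 780.4 CPM. Mcm3, a subunit of the replicative helicase, was steady at 226, 231, 208 and 248 CPM.

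Antigen presentation and response genes were minor. MHC class I and peptide loading genes held 0.393% ± 0.0474 of the counts, with H2-K1 steady at 1582, 1682, 1795 and 1688 CPM. H2-D1, another class I heavy chain, ranged 4.03-fold at 317, 878, 887 and 1279 CPM. These class I genes are close relatives, so the split of reads between them is uncertain. The class of MHC class II and peptide editing genes held 0.143% ± 0.0125, of which the protease gene Ctss alone made up 46.7%. H2-Aa, a class II chain, stood at 99.8, 138, 188 and 219 CPM. Cd74, the invariant chain that guides class II molecules, stood at 243, 196, 170.0 and 120.1 CPM, in the opposite order among the libraries. Interferon-stimulated genes held 0.456% ± 0.0439, led by Shisa5 at 2036, 2078, 2292 and 1909 CPM. The NF-kB and cytokine class held 0.267% ± 0.0234, led by the NF-kB inhibitor Nfkbia at 724, 888, 799.5 and 843 CPM. Immediate early genes held 0.160% ± 0.0181, with Jun at 265, 202, 145 and 106 CPM, highest in replicate 1. Survival and cell death genes held 0.184% ± 0.0104, led by Mcl1, an anti-apoptotic gene, at 309, 401, 367 and 492 CPM.

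Over the 2757 genes with a mean of at least 50 CPM, the median ratio of highest to lowest library was 1.503, with 484 genes steady and 517 variable. With 4 libraries of 1 group no test was made, so these calls describe these libraries only. Without replicates 1 and 4 the counts became 2025 and 4, and without either one the variable genes fell to 116 (without replicate 1) or 182 (without replicate 4).

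**Figure D4:**
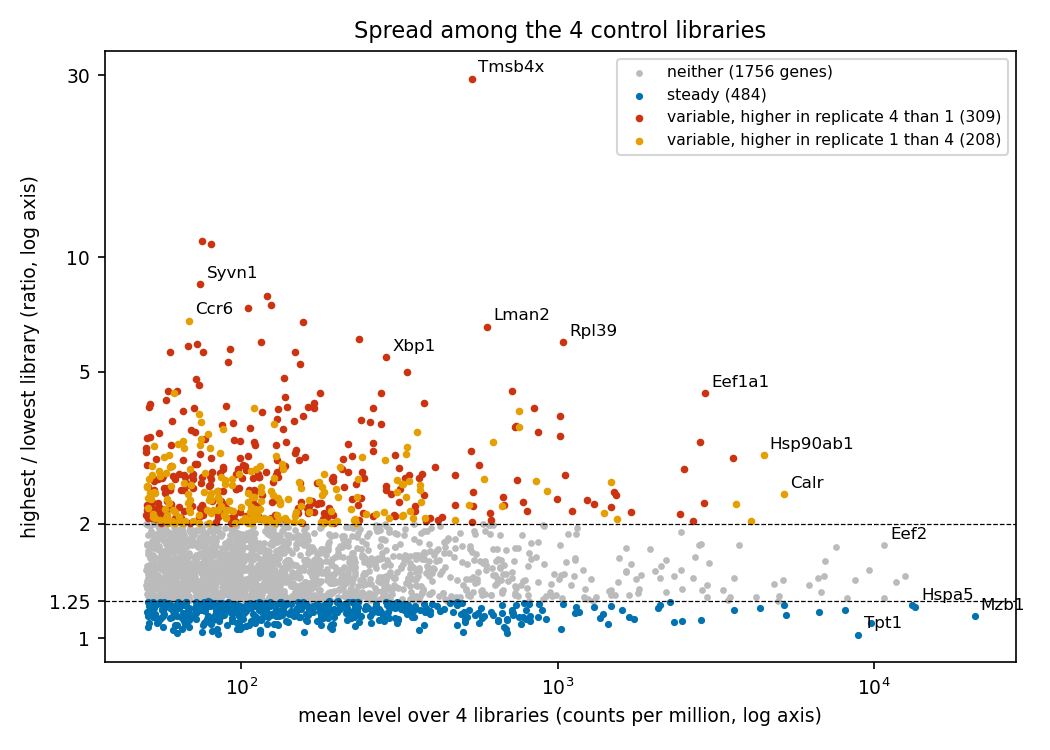
Ratio of the highest to the lowest library against the mean level, both on log axes, for 2757 genes with a mean of at least 50 CPM; dashed lines mark the limits of the steady and variable calls, and colours mark 484 steady genes, 309 variable genes higher in replicate 4 than in replicate 1 and 208 higher in replicate 1. Steady genes include Mzb1, and variable genes include Calr, with a mean of 5209 CPM. Predicted gene models and clone names aside, Tmsb4x has the highest ratio at 29.4-fold.

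Besides Tpt1 (ratio 1.02), the steadiest genes came from many functions. Predicted gene models and clone names were left out of this ranking. Among the first 15, only Tpt1 and Ube2d2a had any spread left beyond counting error. The ratios of the others were thus no wider than counting error gives, and their places in the ranking are uncertain. Caprin1, an RNA-binding protein of stress granules, stood at 123, 126, 124 and 127 CPM. Acadl, a mitochondrial acyl-CoA dehydrogenase, stood at 62.1, 62.7, 62.4 and 64.0 CPM. Clcn3, an endosomal chloride transporter, followed at 115, 112, 115 and 114 CPM, then Erp29, Kmt2e, Nudcd3 and Supt4a. Sdha, a subunit of succinate dehydrogenase, was at 115, 113, 117 and 112 CPM. Ube2e3 and Ube2d2a, which encode ubiquitin-conjugating enzymes, and the membrane protein genes Tor1aip1, Tmem214 and Tmem11 were also among the first 15. In the ubiquitin class 8 of 16 genes were steady and 1 was variable, beside 17.6% and 18.8% of all genes.

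The most variable gene, again with predicted gene models and clone names left out, was Tmsb4x, which encodes the actin-binding peptide thymosin beta 4. Its level was 47.6, 208, 487 and 1402 CPM, 29.4-fold from replicate 1 to replicate 4. Plac8, a small cysteine-rich protein gene, came next at 16.4, 35.0, 68.7 and 181 CPM. Arpc1a, a subunit of the actin-nucleating Arp2/3 complex, stood at 14.8, 54.7, 91.5 and 159.9 CPM. Sdcbp, the gene of the syndecan-binding protein syntenin, stood at 30.4, 98.4, 113 and 240.2 CPM, and Capzb, a capping protein of actin filaments, was also among the 25. Secretory genes Syvn1, Kdelr2, Lman2, Erp44, Srp9 and Xbp1, given above, were also among the 25, as were Tm9sf2, Clptm1l, Itm2c and Gabarapl2, which encode membrane or vesicle proteins. In 24 of the 25, replicate 1 was lowest and replicate 4 highest. The exception was Ccr6, a chemokine receptor of B cells, at 174, 25.5, 39.5 and 34.1 CPM, high in replicate 1 alone. Between replicates 2 and 3, 4 genes were 2-fold apart: Tmsb4x and also Ankrd55, Galnt2 and Zfp335, these 3 named after their values were seen. Galnt2, a glycosyltransferase that starts O-glycans, stood at 153, 100.1, 43.4 and 54.2 CPM.

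**Figure D5:**
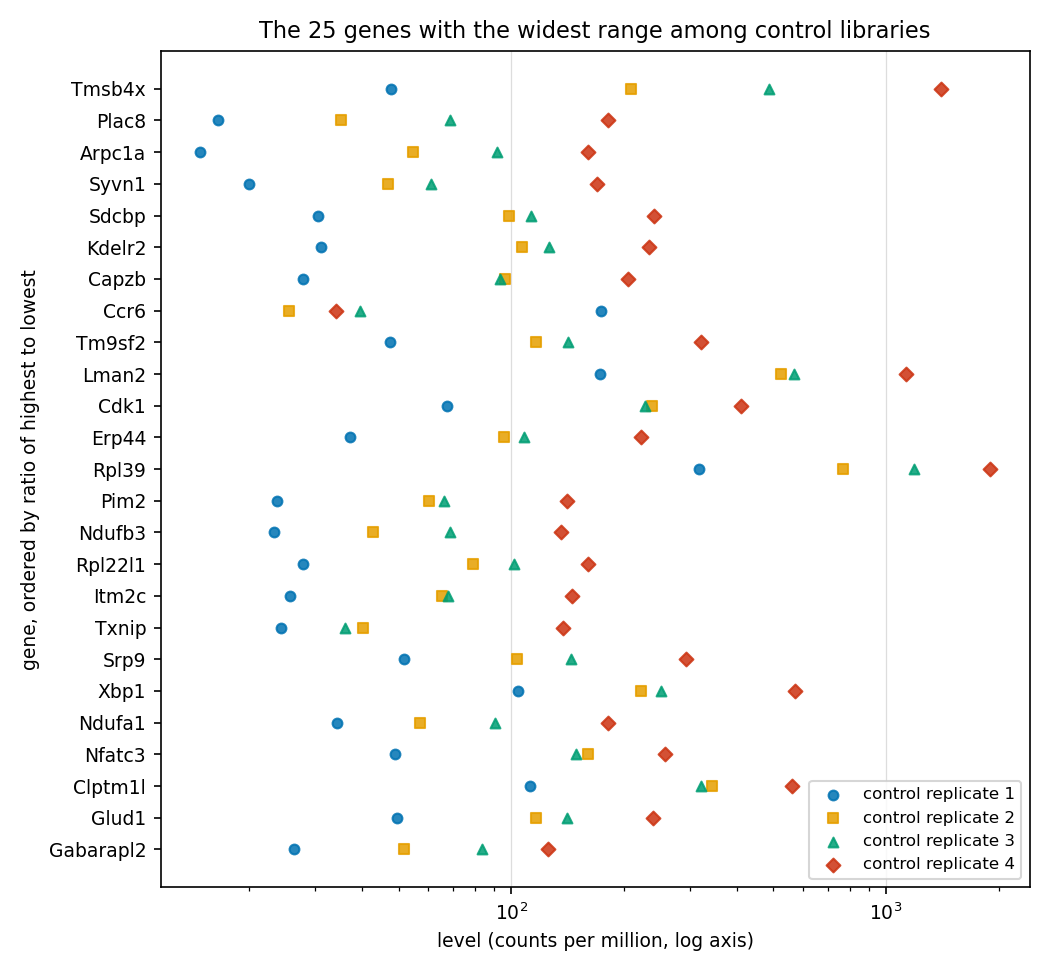
Level of the 25 genes with the highest ratio among the 4 control libraries, in CPM on a log axis. Genes are ordered by that ratio, predicted gene models and clone names are left out, and each marker is 1 library. In 24 genes the level is lowest in replicate 1 and highest in replicate 4 with the other libraries between, and Ccr6 shows replicate 1 alone at the high end.

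The ordering of the libraries was drawn from a set that includes the variable genes. Their extremes therefore describe that ordering and do not test it, and no share of such extremes is given for all genes of the set. In 455 of 517 (88.0%) replicates 1 and 4 were the extremes, 286 with replicate 1 lowest and 169 with replicate 4 lowest. Replicates 2 and 3 lay within 25% of each other in 334 of the 517. Beside this, they did so in 2025 of 2757 genes with a mean of at least 50 CPM over replicates 2 and 3 alone. The classes are read beside 18.8% variable over all genes and a split of 309 higher in replicate 4 to 208 higher in replicate 1. In the ribosomal protein class 18 of 80 genes were variable, in the respiratory chain class 15 of 60, in the translocation class 7 of 28 and in the plasma cell class 4 of 13, and all of these were higher in replicate 4. In the ER-Golgi traffic class 12 of 40 were variable, 11 of them higher in replicate 4. In the interferon-stimulated class 4 of 13 were variable, all higher in replicate 1. These were Dtx3l and, named after their values were seen, Ifi35, Parp14 and the interferon regulatory factor Irf7, which stood at 76.8, 70.2, 84.3 and 32.9 CPM. Under TMM and median-of-ratios scaling these directions held for the variable genes of each class, except that 1 of 8 variable translocation genes was lower in replicate 4 under the latter. Some further classes leaned to replicate 4 on plain totals. In the translation factor class 8 of 45 genes were variable, in N-glycosylation 6 of 26 and in G2/M 5 of 32. All of these were higher in replicate 4, as were 8 of 9 variable splicing genes. Variable proteasome genes split 4 to 4, and those outside any class split 151 higher to 168 lower in replicate 4. The B cell class had 2 variable genes of 26. Among ER folding genes 8 of 33 were variable, 5 of them higher in replicate 4, beside 309 of 517 over all genes. Over those 33 genes the median log2 ratio of replicate 4 to replicate 1 was 0.34, beside -0.06 over all genes.

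Among genes higher in replicate 1 were several of the most abundant. Besides Calr, Hsp90ab1, Eef2 and Atf4, Ptma, which encodes the chromatin-associated peptide prothymosin alpha, stood at 6238, 3531, 3449 and 3079.6 CPM. In the nucleolar class the median log2 ratio of replicate 4 to replicate 1 was -0.67, beside -0.06 over all genes. Its leading member Ncl, which encodes nucleolin, stood at 1632, 1057, 1011 and 870.0 CPM. Npm1, the gene of nucleophosmin, stood at 1078, 847, 822 and 661 CPM, and both were highest in replicate 1 and lowest in replicate 4. In the plasma cell class the same median was 0.62 and in the respiratory chain class 0.46. Transcript length and base composition moved weakly with this ratio: over 2750 genes matched to GENCODE M21 transcripts, Spearman's rho was -0.18 with length and -0.09 with GC content, a description across genes that share the same 4 libraries. The median length was 2230 bases in 307 variable genes higher in replicate 4 and 3436 bases in 207 higher in replicate 1. It was 3049.5 bases over all 2750 genes and 3229 bases in 484 steady genes. The part of length and base composition in the spread was not tested.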

How the data were processed

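Transcript 3′ ends were counted in sorted mouse plasmablasts; only the 4 control libraries were used. The authors deposited raw read counts per gene symbol, made with a QuantSeq 3′ kit per the labels' protocols. The submitters' processing notes name HTSeq 0.6.1, TopHat2 2.1.1, SAMtools 1.3.1 and BWA 0.7.12 and the build mm10. What each tool did, the annotation and the use of strand: not given in the sources used here. No row lacked a gene name.

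From these counts, CPM on plain totals, class shares, log2 ratios and the ratio of highest to lowest library were computed (Python 3.11.15), with the spread estimated by edgeR 4.0.16 (TMM scaling) and median-of-ratios scaling by DESeq2 1.42.0, in R 4.3.3. The scripts were tested on simulated data. With 1 group no test between groups was made. Totals of 5882912 to 10066661 counts set the precision. Genes were put in 1 of 38 classes by symbol; RefSeq promoters (GRCm38.p6) and GENCODE M21 models gave sequences and positions.

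Members and lists were chosen with earlier results of these data known, and 3 symbol patterns (predicted models, initiation factors, joining chain) were corrected after the symbols were seen. Named genes were the 20 most abundant, up to 4 leading members of each class, the 15 steadiest and 25 most variable, and members of the ER folding, translocation, stress response, plasma cell and B cell lists; others are marked in the text, and 2 genes that the rule names are not reported here. The steadiest and most variable genes were ranked without predicted gene models and clone names. Alternatives were other scalings, minimum levels, thinning to 1 depth, an excess coefficient of variation, and leaving out libraries.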

Additional observations from a re-analysis of the deposited data

Results flagged for a closer look

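Of 182 class shares and gene levels examined, 10 (5.49%) had 1 library far from the other 3, with a gap above Dixon's critical value. Chance alone marks about 1 in 20 groups that are independent and not selected. That rate does not apply directly here, because many of these genes were named for their level or spread and class shares overlap with gene levels. Replicate 1 was the distant library in 4 of them, and it also lay at 1 end of the ordering of the libraries. Chromatin and nuclear architecture genes held 1.43% of its counts against 1.04% to 1.10% in the others. Within that class Ptma, the prothymosin alpha gene, stood at 6238 CPM in replicate 1 and at 3079.6 to 3531 CPM elsewhere. Ccr6, the chemokine receptor gene, stood at 174 CPM there and at 25.5 to 39.5 CPM in the other libraries. Rplp1, a ribosomal stalk protein gene, was lower in replicate 1, at 9135 CPM against 9894 to 10046 CPM.

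Replicate 4 was distant in 3. Sec61b, a Sec61 channel subunit, stood at 740.0 CPM there and at 461 to 505 CPM in the others. Cdc25b, the mitotic phosphatase gene, stood at 1250.0 CPM against 1424 to 1452 CPM. The T cell marker Cd3e reached 2.68 CPM there against 0 to 0.410 CPM. In replicate 3, Tmem214 stood at 119 CPM against 112.6 to 113 CPM, a gap within a steady gene, and Itgax had its single count, 0.137 CPM, below the level of 3 counts. In replicate 2, survival and cell death genes held 0.199% of the counts against 0.178% to 0.181% elsewhere.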

How the results depend on the processing

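Under TMM scaling, thinning to the smallest total or totals without Mzb1, class shares moved by less than the spread between libraries in 113 of 114 recomputations, and the share of ER folding genes fell to 4.20% without Mzb1. The 288 gene levels recomputed with TMM or median-of-ratios scaling moved by less than that spread. Both scalings raised some libraries and lowered others, by log2 -0.06 to 0.05, so a mean over the 4 libraries could hardly move. Thinning draws from the same counts, so mean shares could hardly move under it either. These recomputed means therefore say little about how far the results depend on scaling or depth. A mean over 4 libraries cannot move past its SD when 1 is left out, so the spread between libraries says nothing of the leave-out values. Of 126 named levels of at least 50 CPM, 5 moved by over 1.5 times without 1 library: Ccr6 from 68.2 to 33.0 CPM without replicate 1, and without replicate 4 Tmsb4x from 536 to 248, Tm9sf2 from 157 to 102, Plac8 from 75.3 to 40.05 and Syvn1 from 74.2 to 42.6 CPM. Dividing by transcript length left 12 of the 20 most abundant genes in place. The ratio of highest to lowest library can only fall when a library is left out, so steady counts rose and variable counts fell whichever was dropped. Leaving out 1 library gave 629 to 1044 steady genes (1044 without replicate 1, 727 without replicate 2, 924 without replicate 4) and 116 to 506 variable genes (116 without replicate 1, 499 without replicate 2, 506 without replicate 3, 182 without replicate 4), and without both replicates 1 and 4 there were 2025 steady and 4 variable genes. The counts also changed with the minimum level, and the cause was not tested: 1111 genes were variable with a mean of at least 20 CPM, 313 were steady and 290 variable at 100 CPM, and 788 were steady and 4776 variable with no minimum beyond 1 count in each library. TMM scaling kept 411 steady and 490 variable genes of the 484 and 517, median-of-ratios scaling 406 and 479, and the excess coefficient of variation 472 and 448. No paired analysis was possible because the values come from 1 group and no test was made. Levels under 0.298 to 0.510 CPM could not be told from 0 at these depths.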

Other observations

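Several classes not described above held shares of their own. RNA splicing and hnRNP genes held 1.68% ± 0.135 of the counts (SD, n = 4), lowest in replicate 1 and highest in replicate 4, and lysosome and autophagy genes held 0.965% ± 0.0707. Laptm5, a lysosomal membrane protein of blood cells that lowers antigen receptor levels, led the latter at 1833, 2207, 1809 and 1506 CPM in replicates 1 to 4. Long noncoding and small RNA host genes held 1.35% ± 0.196, highest in replicate 1, and besides Malat1 their main member was Neat1, the RNA of nuclear paraspeckles, at 2101, 2372, 2078 and 1579 CPM. Histone genes held 0.306% ± 0.0261, led by the variant H2afz, whose transcripts carry a poly(A) tail, at 575, 1082, 995 and 1336 CPM. Mitochondrial ribosomal protein genes held 0.402% ± 0.00891, a share that differed by 1.04-fold between libraries. Among regulators of B cell signalling and innate sensing, the cytokine receptor gene Il21r stood at 626, 549, 453 and 332 CPM and Tirap, a Toll-like receptor adaptor gene, at 318, 193, 158 and 129 CPM, both highest in replicate 1 and lowest in replicate 4.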
